A study of Mus musculus with 12 samples.

Results

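The integrated stress response is described here through 10 genes in growing mouse oocytes that lack MTR4, an RNA helicase that passes RNA to the nuclear exosome for trimming or decay. The members were the rows of the deposited FPKM table whose symbol was Atf4, Atf5, Ddit3, Trib3, Ppp1r15a, Chac1, Asns, Psat1, Phgdh or Aldh1l2. All 10 symbols were found among 23235 entries. FPKM counts sequenced fragments, divided by transcript length and by the size of the library.

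Oocytes came from mice at day 14 and were either Mtr4-null or wild type (WT), with no other allele and no agent in the labels. Each was divided by micromanipulation into nucleus and cytoplasm, and total RNA freed of ribosomal RNA was sequenced from 10 nuclei or 10 cytoplasms per library. The groups were Mtr4-null nuclei, WT nuclei, Mtr4-null cytoplasms and WT cytoplasms, with 3 libraries each and 12 in all. The Cre line or other means by which Mtr4 was removed is not given in the sources used here. Whether each library of a group stems from its own mouse is not stated either, so the p-values speak of the scatter among libraries, part of which may be technical.

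In this response, kinases that sense amino acid shortage, double-stranded RNA, misfolded protein in the endoplasmic reticulum or lack of haem phosphorylate the initiation factor eIF2. Most translation slows, while the mRNA of Atf4 is translated better, so the pathway can be switched on with little change in Atf4 mRNA. The ATF4 protein, a bZIP transcription factor, then induces genes of amino acid supply and of feedback, and growing oocytes take up and make amino acids while they accumulate RNA and protein.

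ATF4 pairs with C/EBP proteins at a composite element, and its core TGATGNAA was searched on both strands of promoter windows from RefSeq (GRCm38.p6, 250 bases before to 50 after a gene's start). Of the 10 members 9 had an entry in that table (Aldh1l2 had none), and 3 of these 9 held a match, Asns, Trib3 and Chac1. Over all 32851 windows of that set 3.97% held one. These matches are shown because these genes took different courses in the results that follow. Each is written 5′ to 3′ on the gene's strand with 11 bases on either side, and capitals mark the core or its reverse complement.
Asns (chr6:7693214-7693243, minus strand, core beginning 23 bases before the start): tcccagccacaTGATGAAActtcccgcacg
Trib3 (chr2:152344028-152344057, minus strand, core beginning at base 15 of the transcript): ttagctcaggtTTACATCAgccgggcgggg
Chac1 (chr2:119351038-119351067, plus strand, core beginning 193 bases before the start): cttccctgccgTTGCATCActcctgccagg
A match describes these letters only, and none in a window says nothing of ATF4 there.

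The libraries set limits on what follows. Skiv2l2, the symbol of Mtr4 in the table, was at 1.04, 0.315 and 0.700 FPKM in Mtr4-null cytoplasms and 21.1, 19.4 and 20.2 FPKM in WT cytoplasms. It was at 7.98, 0.182 and 1.12 FPKM in nuclei labelled Mtr4-null and 6.06, 2.45 and 5.37 FPKM in WT nuclei, so replicate 1 of that label goes against it. Replicate 3 of the nuclei labelled Mtr4-null was closer to the WT cytoplasms (Spearman correlations across genes of 0.87 to 0.89) than to the WT nuclei (0.79 to 0.81). The median SD within a group on the log2 scale was 0.75 in nuclei labelled Mtr4-null, 0.42 in WT nuclei, 0.23 in Mtr4-null cytoplasms and 0.13 in WT cytoplasms. Oocyte markers were at 4101 to 14931 and 4319 to 8679 summed FPKM in the Mtr4-null and WT nuclei, and at 13958 to 19665 and 13588 to 14760 in the Mtr4-null and WT cytoplasms (10 of 10 genes detected in each group). The 16 granulosa cell markers summed to 21.6 to 28.0 FPKM in Mtr4-null and 34.5 to 41.5 FPKM in WT cytoplasms. Those of theca and stroma (12 genes) summed to 0.274 to 0.959 and 1.24 to 2.24 FPKM, and of blood and endothelium (11 genes) to 13.8 to 21.6 and 16.7 to 25.2 FPKM in the same order, with both adult beta-globin and both alpha-globin genes listed at 0. The part of these markers in the results was not tested.

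In WT cytoplasm the members covered a wide range of levels. Atf4 was highest at 134 ± 21.3 FPKM (SD, n = 3, as for all means here), with no overlap with the next gene. Ddit3, Ppp1r15a and Phgdh followed at 20.9 ± 4.13, 19.9 ± 2.20 and 18.7 ± 0.868 FPKM and overlapped one another. Chac1 came next at 6.87 ± 0.330, below these and above Asns (2.77 ± 1.37) and Atf5 (2.06 ± 0.225 FPKM), which overlapped. Trib3 (0.493 ± 0.538 FPKM) and Psat1 (0.172 ± 0.0604 FPKM) overlapped too, and Aldh1l2 was lowest at 0.0595 ± 0.0141 FPKM. Of the members, 10 of 10 passed the filter of at least 1 FPKM in at least 3 of 12 libraries. Psat1 passed it through the WT nuclei only, and Aldh1l2 through the WT nuclei and replicate 3 of the nuclei labelled Mtr4-null, so that the filter itself favours a high WT nucleus in both. Asns passed it only with the WT cytoplasms counted and Trib3 only with the Mtr4-null cytoplasms counted, so the filter favours high values there too.

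**Figure D1:**
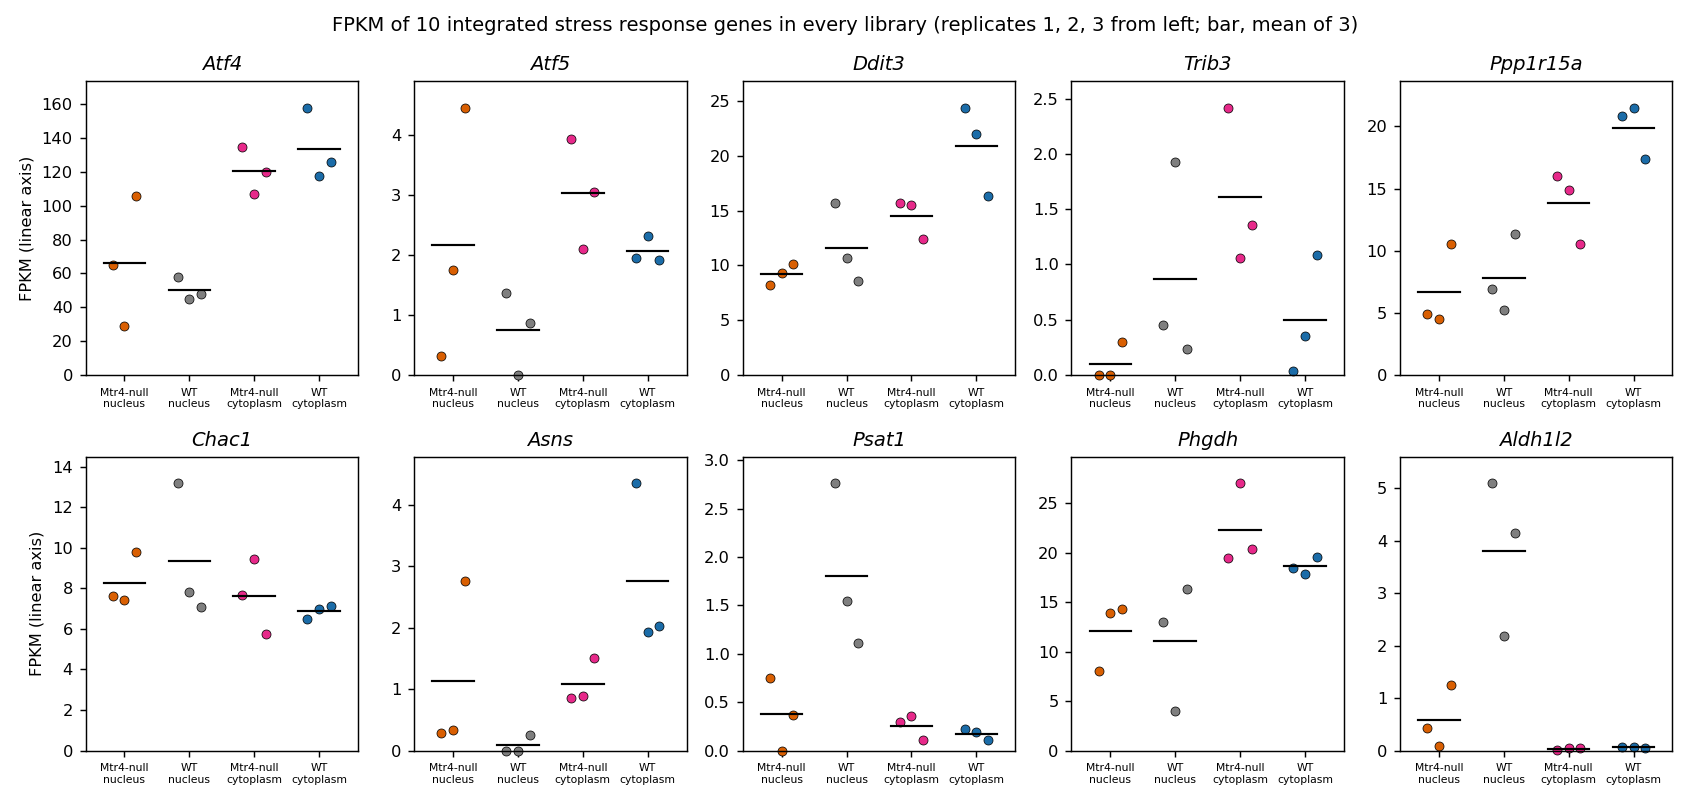
FPKM (linear axis, scaled to each gene) of the 10 members in the 12 libraries, by group, with bars at the mean of 3. Atf4 lies at 107 FPKM or more in all 6 cytoplasms. Aldh1l2 and Psat1 reach 1 FPKM in all 3 WT nuclei and otherwise only Aldh1l2 does, in replicate 3 of the nuclei labelled Mtr4-null.

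The cytoplasm holds the mRNA open to translation, and there no member differed between genotypes past the threshold in a fit of all 12 libraries. That fit, limma on log2(FPKM + 1) with Benjamini-Hochberg adjustment over 13157 genes, called a gene at an adjusted p below 0.05. It called 0 of 10 members and 1.88% of all genes tested (1 member at an unadjusted p below 0.05, against 12.6% of all genes). Since the nuclei varied more than the cytoplasms, a fit of the 6 cytoplasms alone is given beside it. This called 0 of 10 members and 23.2% of all genes (4 members at an unadjusted p below 0.05, against 38.3% of all genes). With a single weight for each group, a fit added after the data were seen, 1 member was higher and 2 were lower, against 16.1% of all genes higher, 12.9% lower and 29.0% in either direction. The median log2 difference of the members, Mtr4-null minus WT, was 0.03, against 0.00 for all genes tested. FPKM is a share of a library, so a lower value may come from less RNA of that gene or more of others. Fewer cells holding an RNA and less of it per cell cannot be told apart either.

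Among the transcription factors, Atf4 and Atf5 overlapped between genotypes and Ddit3 did not. Atf4 stood at 135, 107 and 119.6 FPKM in Mtr4-null cytoplasms and 158, 118 and 126 FPKM in WT cytoplasms, with overlapping groups. Its log2 difference was -0.14 ± 0.39 (SE) in the fit of 12 libraries, with a 95% interval of -0.97 to 0.69. In the fit of the cytoplasms alone the interval was -0.50 to 0.21. Atf5, a related factor linked to stress in mitochondria, was at 3.94, 2.10 and 3.05 FPKM in Mtr4-null and 1.95, 2.32 and 1.92 FPKM in WT cytoplasms (log2 difference 0.37, interval -0.11 to 0.85 in the cytoplasms alone). Replicate 2 of the Mtr4-null cytoplasms lay within the WT values.

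Ddit3, which encodes CHOP, a partner of C/EBP proteins known for promoting death under lasting stress, was at 15.7, 15.5 and 12.4 FPKM in Mtr4-null cytoplasms and 24.4, 22.0 and 16.4 FPKM in WT cytoplasms. All Mtr4-null libraries lay below all WT libraries. The log2 difference was -0.49, with an adjusted p of 0.63 in limma's fit of 12 libraries, 0.10 in that of the cytoplasms alone and 0.054 with group weights.

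Of the feedback genes, Ppp1r15a and Trib3 had differences of opposite sign. Ppp1r15a, whose product GADD34 brings protein phosphatase 1 to eIF2 and so ends the response, was at 16.0, 14.9 and 10.6 FPKM in Mtr4-null and 20.8, 21.5 and 17.4 FPKM in WT cytoplasms, again without overlap. Its log2 difference was -0.51, with an adjusted p of 0.72 in the fit of 12 libraries, 0.090 in that of the cytoplasms alone and 0.042 with group weights. Trib3, a pseudokinase that restrains ATF4 and CHOP, had 2.42, 1.06 and 1.35 FPKM in Mtr4-null and 0.0394, 0.354 and 1.09 FPKM in WT cytoplasms. Replicate 2 of the Mtr4-null group fell just below the highest WT library. The log2 difference was 0.83, with adjusted p of 0.36, 0.10 and 0.033 in the same 3 fits. Trib3 passed the filter only with the Mtr4-null cytoplasms counted, where it was high. Chac1, an enzyme that breaks down glutathione, was at 7.68, 9.43 and 5.73 FPKM in Mtr4-null and 6.50, 6.97 and 7.13 FPKM in WT cytoplasms, with the Mtr4-null values on both sides of the WT ones (log2 difference 0.11, interval -0.35 to 0.57 in the cytoplasms alone).

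Asns had the lowest difference of the 10 members. This gene of asparagine synthetase was at 0.863, 0.893 and 1.51 FPKM in Mtr4-null cytoplasms and 4.34, 1.92 and 2.03 FPKM in WT cytoplasms. No Mtr4-null library reached the WT range, and the mean was 39.4% of that of WT, with WT replicate 1 far above its group. The log2 difference was -0.81, with adjusted p of 0.45 in the fit of 12 libraries, 0.083 in the cytoplasms alone and 0.028 with group weights. Asns passed the filter only with the WT cytoplasms counted, where it was high. Phgdh, the enzyme that opens serine synthesis from glycolysis, was at 19.5, 27.0 and 20.4 FPKM in Mtr4-null and 18.5, 17.9 and 19.6 FPKM in WT cytoplasms (log2 difference 0.23, interval -0.12 to 0.58 in the cytoplasms alone). Psat1, the next enzyme of that pathway, was at 0.355 FPKM or less in all 6 cytoplasms, and Aldh1l2, a mitochondrial enzyme of folate metabolism, was at 0.0721 FPKM or less. In the cytoplasms alone their intervals were -0.13 to 0.32 and -0.14 to 0.08 on the log2 scale. At such low values the added 1 FPKM presses differences toward 0, so these intervals do not show steady levels. As deposited, the Mtr4-null means were 148% and 64.4% of those of WT.

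Of the 10 members, 3 lay lower in all Mtr4-null than in all WT cytoplasms (Asns, Ddit3 and Ppp1r15a) and 0 lay higher. Over all genes tested 20.9% lay lower and 23.0% higher in this way, so the members' share is near the background. Asns and Trib3, which both hold the ATF4 core shown above, had log2 differences of opposite sign, and Chac1, which holds it as well, overlapped between genotypes.

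**Figure D2:**
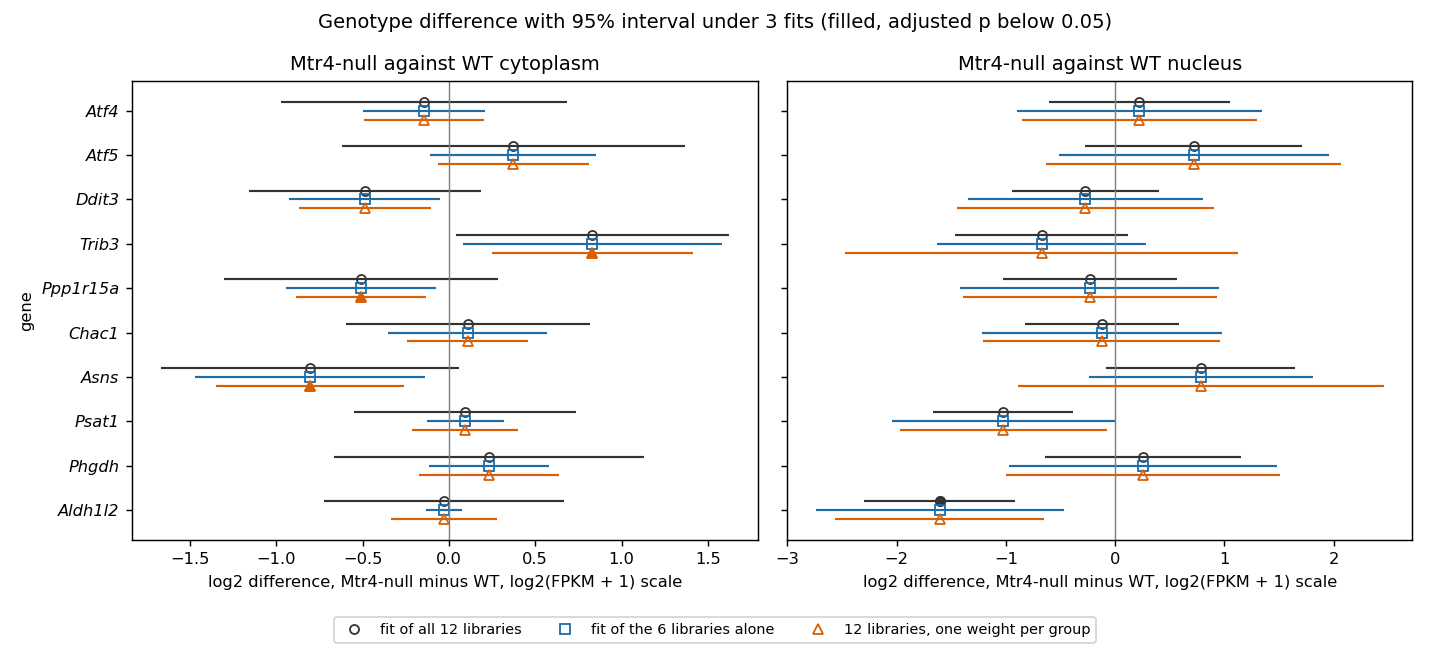
Log2 difference, Mtr4-null minus WT, of the 10 members in cytoplasm (left) and nucleus (right) with 95% intervals under 3 fits. Filled symbols have an adjusted p below 0.05, which Aldh1l2 reached in the nucleus in the fit of 12 libraries and Asns, Ppp1r15a and Trib3 in the cytoplasm with group weights only.

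Other genes of the pathway, taken from 4 lists, were read in the same way. Upstream of ATF4, 22 of 23 listed genes of eIF2, its kinases, its exchange factor eIF2B and its phosphatases were in the table, and 22 were tested. The fit of 12 libraries called 0, and that of the cytoplasms alone called 1 that rose and 2 that fell (median -0.05). Eif2s2, the beta subunit of eIF2, fell to 39.9 ± 4.56 FPKM in Mtr4-null cytoplasms, against 69.0 ± 5.77 FPKM in WT (log2 -0.78, adjusted p = 0.0076 in the cytoplasms alone, 0.69 in 12 libraries). Of eIF2B subunits Eif2b2 fell (log2 -0.49, adjusted p = 0.045) and Eif2b5, which carries the exchange activity, rose (log2 0.48, adjusted p = 0.033), both in the cytoplasms alone with limma.

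None of the 4 eIF2 kinases was called in either fit of the cytoplasm (limma; 0 of 4). Eif2ak1, the haem-regulated kinase, was the most abundant at 66.5 ± 6.92 FPKM in Mtr4-null and 68.6 ± 3.50 FPKM in WT cytoplasms. Eif2ak3 (PERK, of the endoplasmic reticulum) was at 20.0 ± 3.14 and 20.0 ± 0.679 FPKM, and Eif2ak4 (GCN2, of amino acid shortage) at 19.5 ± 3.78 and 25.1 ± 1.62 FPKM in Mtr4-null and WT. Eif2ak2 (PKR, of double-stranded RNA) was low, at 0.235, 0.238 and 0.184 FPKM in Mtr4-null and 0.370, 0.373 and 0.437 FPKM in WT cytoplasms, without overlap (adjusted p = 0.052 in the cytoplasms alone).

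Among 36 other partners and targets of ATF4, 29 were tested, of which the fit of 12 libraries called 0 that rose and 1 that fell, and that of the cytoplasms alone 3 and 5. The median difference was 0.00. Those that rose in the cytoplasms alone were Sesn2, an inhibitor of mTORC1 (5.53 ± 1.87 FPKM in Mtr4-null and 2.43 ± 0.299 FPKM in WT), the proline synthesis enzyme Pycr1 (1.84 ± 0.362 and 0.687 ± 0.291 FPKM) and the factor Atf3 (1.78 ± 0.716 and 0.631 ± 0.221 FPKM). Their log2 differences were 0.90, 0.76 and 0.75 with adjusted p of 0.038, 0.025 and 0.047. Jhdm1d, a histone lysine demethylase gene, fell in both fits to 16.9 ± 4.47 FPKM in Mtr4-null, against 52.1 ± 3.23 FPKM in WT cytoplasms (log2 -1.60 ± 0.38, adjusted p = 0.045 in 12 libraries). Aldh18a1, which acts before Pycr1 in proline synthesis, fell by 0.97, the cationic amino acid carrier gene Slc7a1 fell by 0.56 and Mthfd2, of mitochondrial folate metabolism, fell by 0.45 on the log2 scale in the cytoplasms alone (adjusted p = 0.012, 0.026 and 0.037). In the fit of 12 libraries Pycr1 and Aldh18a1 were not called (adjusted p = 0.36 and 0.48).

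Of 20 cytosolic tRNA synthetases, which charge tRNAs and include ATF4 targets, 20 were tested and 0 were called in the fit of 12 libraries, while 0 rose and 3 fell in the cytoplasms alone (median -0.06). These were Tars at 12.1 ± 1.02 FPKM in Mtr4-null and 22.3 ± 2.05 FPKM in WT, Qars at 105 ± 25.9 and 177 ± 2.80 FPKM, and Farsa at 31.8 ± 2.27 and 39.4 ± 0.603 FPKM (adjusted p = 0.0072, 0.029 and 0.046). Of 22 genes of the unfolded protein response of the endoplasmic reticulum, 22 were tested, with 0 called in the fit of 12 libraries, and 2 that rose and 2 that fell in the cytoplasms alone (median 0.12). Pdia6, a disulphide isomerase gene, rose to 120.3 ± 7.13 FPKM in Mtr4-null, against 47.2 ± 6.41 FPKM in WT (log2 1.34, adjusted p = 0.0022), and the chaperone gene Hspa5 rose to 134 ± 12.1 against 98.5 ± 11.2 FPKM (log2 0.45, adjusted p = 0.041). Manf, a secreted factor of the reticulum, fell by 0.59 and Pdia4, another isomerase, fell by 0.51 on the log2 scale (adjusted p = 0.0080 and 0.023). The shares called in the 4 lists are to be read against 1.88% in the fit of 12 libraries and 23.2% in the cytoplasms alone. In the cytoplasms alone the 4 lists had 3 of 22, 8 of 29, 3 of 20 and 4 of 22 genes called.

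**Figure D3:**
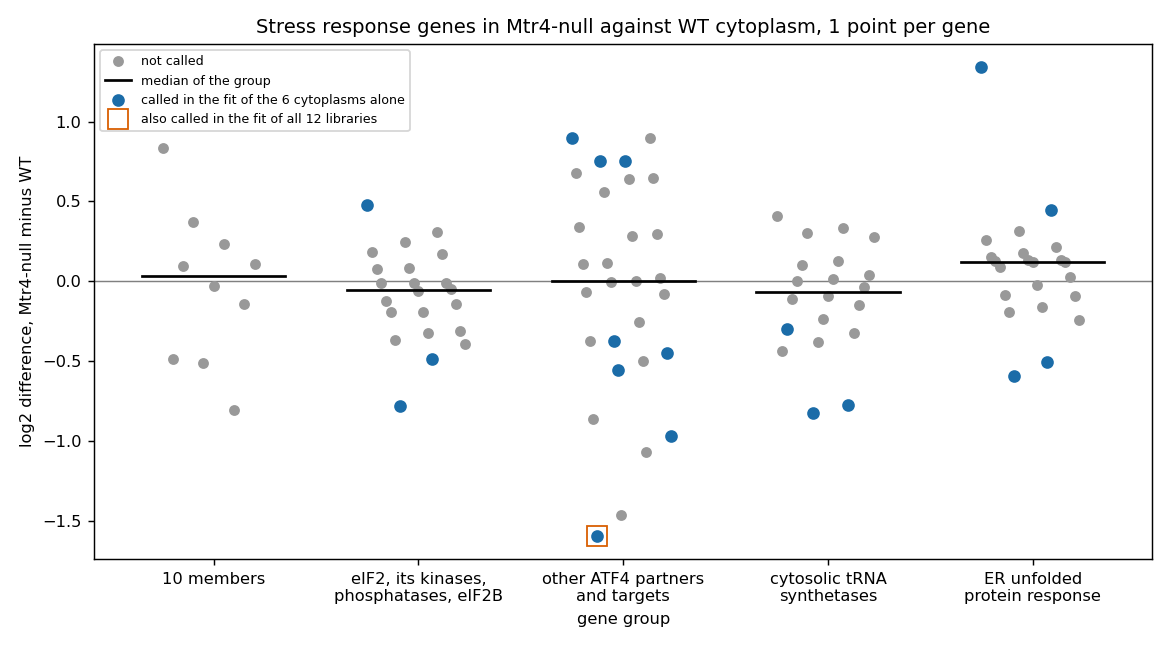
Log2 difference, Mtr4-null minus WT cytoplasm, of the 10 members and of 4 lists of related genes, with 1 point per tested gene and a line at each median. Medians lie between -0.06 and 0.12, and called genes (blue, in the 6 cytoplasms alone; square, also in 12 libraries) lie on both sides of 0 except among the tRNA synthetases.

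In the nucleus, which holds new and retained transcripts, Aldh1l2 was the member that passed the threshold, in the fit of 12 libraries but not in that of the nuclei alone. It was at 0.425, 0.0968 and 1.25 FPKM in nuclei labelled Mtr4-null and 5.09, 2.18 and 4.14 FPKM in WT nuclei. Every library labelled Mtr4-null lay below every WT nucleus, and the mean was 15.6% of that of WT. The log2 difference was -1.61 ± 0.33, and limma's fit of 12 libraries called it lower (adjusted p = 0.020). It called 1 of 10 members, which was lower, and 2.26% of all genes, with 1.75% lower. Aldh1l2 passed the filter only with the WT nuclei counted, where it was high, so the filter favours this call. A fit of the 6 nuclei alone, where the larger spread of the nuclei counts in full, called 0 of 10 members and 0.0380% of all genes, and Aldh1l2 had an adjusted p of 0.46 there. With group weights 0 of 10 members and 0.0228% of all genes were called (adjusted p = 0.41 for Aldh1l2). With replicate 1 of the nuclei labelled Mtr4-null left out the difference was -1.56 (adjusted p = 0.014), and without replicate 3 it was -1.89 (adjusted p = 0.011), in fits that included the cytoplasms. Without both it was -2.08, from 1 library of that label. Leaving out a library also changes the spread that all groups share in the fit. These adjusted p are therefore not comparable with that of all 12 libraries. Without WT nucleus replicate 1 or 3 the call was lost (adjusted p = 0.073 and 0.052).

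Psat1 followed the same course without a call. It was at 0.755 FPKM, listed at 0, and at 0.371 FPKM in nuclei labelled Mtr4-null, and at 2.76, 1.55 and 1.11 FPKM in WT nuclei, without overlap (log2 difference -1.02 ± 0.30, adjusted p = 0.082 in 12 libraries and 0.64 in the nuclei alone). Without replicate 1 of the nuclei labelled Mtr4-null it was called (log2 -1.22, adjusted p = 0.021), in a fit whose shared spread changed too. Without replicates 1 and 3 the log2 difference was -1.45, from 1 library of that label. Over all genes 6.70% lay lower without overlap and 6.22% higher, against 2 and 1 of the 10 members. The 2 that lay lower, Aldh1l2 and Psat1, passed the filter only with the WT nuclei counted, so the filter favours this. The makeup of the nuclei was read beside these values. Of 9 listed nuclear RNAs such as Malat1, 7 were tested, and 3 fell and 0 rose in nuclei labelled Mtr4-null in the fit of 12 libraries. The fit of the nuclei alone and that with group weights called 0 of them. Their median was -1.46 on the log2 scale, and 4 lay lower and 0 higher without overlap. The 12 theca and stroma markers summed to 4.85 to 8.43 FPKM in nuclei labelled Mtr4-null and 5.23 to 39.2 FPKM in WT nuclei. Of these 3 were tested and 0 called, 2 lay lower without overlap, and the median was -1.05, while Lum was listed at 0 in all nuclei labelled Mtr4-null and Lhcgr in all WT nuclei. The 16 granulosa cell markers summed to 10.0 to 30.3 and 19.6 to 29.9 FPKM in nuclei labelled Mtr4-null and WT, with 6 and 1 genes listed at 0, and the 11 of blood and endothelium to 7.97 to 13.1 and 8.10 to 12.5 FPKM, with 6 and 5 at 0. The part of the nuclear RNAs and of these markers in the values of Aldh1l2 and Psat1 was not tested.

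Asns was the member that lay higher without overlap, at 0.287, 0.327 and 2.76 FPKM in nuclei labelled Mtr4-null, while WT nuclei were listed at 0, 0 and 0.255 FPKM. Its highest value was in replicate 3, the library close to the cytoplasms, and the log2 difference of 0.79 ± 0.41 (adjusted p = 0.33) was 0.28 without that library and 0.30 without replicates 1 and 3. The direction was opposite to that in the cytoplasm, and the difference between the genotype effects, nucleus minus cytoplasm, was 1.59 ± 0.57 (adjusted p = 0.33). That test called 0 of 10 members and 0.122% of all genes (4 members at an unadjusted p below 0.05, against 10.0% of all genes). Those 4 were Asns, Aldh1l2 (-1.58), Trib3 (-1.50) and Psat1 (-1.12), with adjusted p of 0.33, 0.19, 0.30 and 0.35. Each passed the filter only with a group counted where it was high, so the filter favours these differences. With group weights 2 members were at an unadjusted p below 0.05 in limma, against 7.88% of all genes.

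The other members overlapped between the nuclei labelled Mtr4-null and WT. Atf4 was at 64.8, 28.9 and 105 FPKM in nuclei labelled Mtr4-null and 58.0, 45.1 and 47.6 FPKM in WT nuclei, so the libraries labelled Mtr4-null spread to both sides. Its log2 difference was 0.22, without replicate 3 it was -0.20, and without replicates 1 and 3, which leaves 1 library of that label, it was -0.77. Trib3 was listed at 0, 0 and 0.297 FPKM in nuclei labelled Mtr4-null and 0.453, 1.92 and 0.238 FPKM in WT nuclei. Atf5, Ddit3, Ppp1r15a, Chac1 and Phgdh had log2 differences between -0.27 and 0.72, with adjusted p between 0.45 and 0.89 in limma's fit of 12 libraries.

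In the 4 lists 0 genes were called in the nucleus in either fit, over 22, 29, 20 and 22 tested genes. Over all genes 2.26% were called in the fit of 12 libraries and 0.0380% in the nuclei alone. The lists had medians of 0.25, 0.12, 0.29 and 0.12 in the order above, against 0.04 for all genes. Eif2ak2 was at 6.13, 0.684 and 4.30 FPKM in nuclei labelled Mtr4-null and 15.1, 7.51 and 11.4 FPKM in WT nuclei, without overlap. Its log2 difference was -1.58 ± 0.45 (adjusted p = 0.076 in 12 libraries and 0.52 in the nuclei alone). It was called without replicate 1 (adjusted p = 0.012), in a fit whose shared spread changed too. All its cytoplasms were below 1 FPKM, so Eif2ak2 passed the filter only with the WT nuclei counted, where it was high. The other kinases Eif2ak1, Eif2ak3 and Eif2ak4 had differences of 0.81, 0.20 and -0.43, with adjusted p of 0.22, 0.83 and 0.55. The most abundant genes of the lists in the nuclei were Eif5 (0.74) and Gcn1l1 (0.19), Slc6a9 (0.66) and Ddit4 (0.37), Qars (0.18) and Iars (0.41), and Ern1 (0.30) and Calr (0.27 on the log2 scale), all without a call.

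Nucleus and cytoplasm were then compared within each genotype. Shares of a library cannot show how much RNA each compartment held: the median gene was at -0.82 in Mtr4-null and -0.90 in WT on the log2 scale, nucleus minus cytoplasm. Values are therefore read against these medians. Between 58.0 and 81.7% of all FPKM in a nuclear library belonged to Scarna2, a small nuclear RNA. In Mtr4-null the fit of 12 libraries called 0 members higher in the nucleus and 2 lower, 2 of 10 against 32.2% of all genes. In the 6 Mtr4-null libraries alone it called 0 of 10, against 0.935% of all genes. In WT the fit of 12 libraries called 2 members higher and 4 lower, 6 of 10 against 57.1% of all genes. Without overlap between compartments, 1 member was higher and 5 lower in Mtr4-null (5.95% and 35.8% of all genes), and 2 were higher and 6 lower in WT (14.1% and 59.4% of all genes).

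The 2 members higher in WT nuclei were Aldh1l2 and Psat1, both of which passed the filter through that group. Aldh1l2 averaged 3.80 ± 1.49 FPKM in WT nuclei and 0.0595 ± 0.0141 FPKM in WT cytoplasms, a ratio of 63.9 (log2 2.13 ± 0.33, adjusted p = 0.00034). Psat1 averaged 1.81 ± 0.853 and 0.172 ± 0.0604 FPKM, a ratio of 10.5 (log2 1.22 ± 0.30, adjusted p = 0.0044). With no filter on low values, limma's adjusted p was 0.00077 for Aldh1l2 and 0.0042 for Psat1 here, and 0.016 and 0.051 between nuclei labelled Mtr4-null and WT. In Mtr4-null the nuclei stood at 0.592 ± 0.597 and the cytoplasms at 0.0384 ± 0.0239 FPKM for Aldh1l2, without overlap and without a call (adjusted p = 0.17). Psat1 was at 0.755, 0 and 0.371 FPKM in the Mtr4-null nuclei and 0.296, 0.355 and 0.110 FPKM in the Mtr4-null cytoplasms, which overlapped (adjusted p = 0.79). Aldh1l2 overlaps D10Wsu102e on the other strand by 1056 bases (GENCODE M21), and reads there cannot be assigned without strand. D10Wsu102e was at 262 ± 70.6 FPKM in WT nuclei and 755 ± 49.1 FPKM in WT cytoplasms.

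Lower in WT nuclei were Asns (log2 -1.75 ± 0.41, adjusted p = 0.0033), Atf4 (-1.39 ± 0.39, adjusted p = 0.0084), Ppp1r15a (-1.30 ± 0.37, adjusted p = 0.0098) and Ddit3 (-0.82 ± 0.31, adjusted p = 0.038). Of these, Asns passed the filter only with the WT cytoplasms counted. Set against the median gene at -0.90, Ddit3 was at the median and Atf4 and Ppp1r15a only somewhat below it. Under scaling by median ratios, which moves the median gene to 0.03, Ddit3 was at 0.24, Atf4 at -0.28 and Ppp1r15a at -0.27 without a call, while Chac1 at 1.34 was called higher in the nucleus (adjusted p = 0.0057). Chac1 averaged 9.35 ± 3.33 FPKM in WT nuclei and 6.87 ± 0.330 FPKM in WT cytoplasms as deposited. The call of Ddit3 was also lost without any single Mtr4-null cytoplasm, without WT nucleus replicate 2 or 3, and without WT cytoplasm replicate 1 or 2 (adjusted p between 0.052 and 0.14).

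In Mtr4-null, Trib3 (log2 -1.22 ± 0.37, adjusted p = 0.037) and Ppp1r15a (-1.02 ± 0.37, adjusted p = 0.049) were lower in the nucleus. Neither was called in the 6 Mtr4-null libraries alone (adjusted p = 0.14 and 0.16), where the SE of Trib3 was 0.31 and that of Ppp1r15a 0.46. Trib3 was listed at 0, 0 and 0.297 FPKM in Mtr4-null nuclei and was at 2.42, 1.06 and 1.35 FPKM in Mtr4-null cytoplasms, without overlap. It passed the filter only with these cytoplasms counted.

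**Figure D4:**
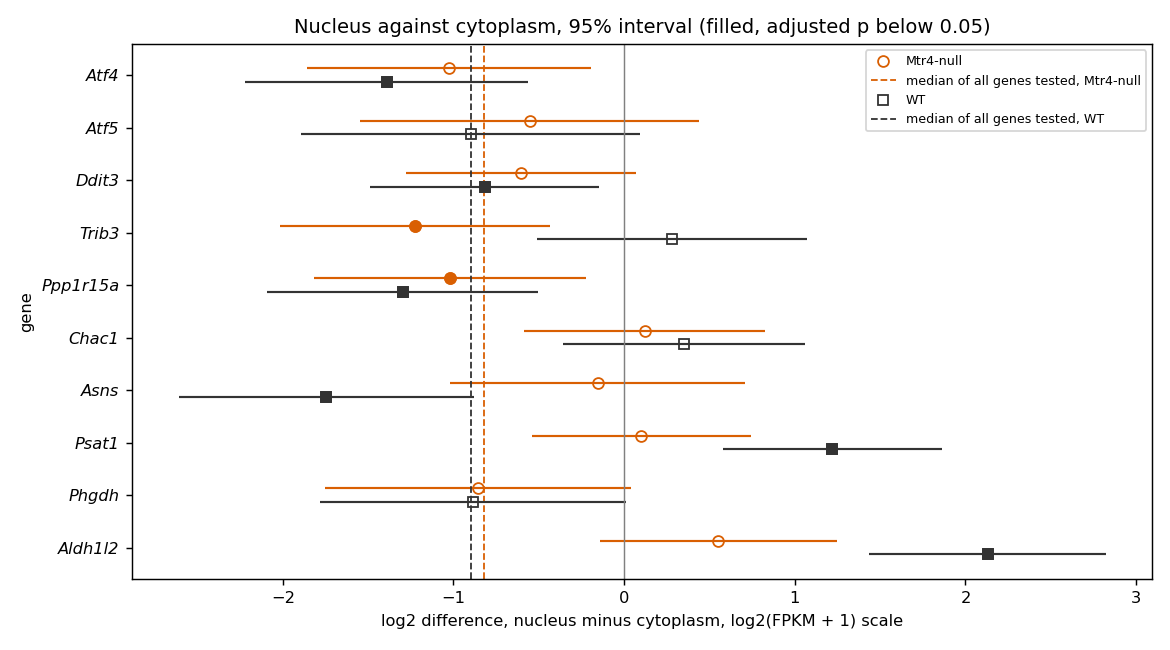
Log2 difference, nucleus minus cytoplasm, of the 10 members in Mtr4-null (circles) and WT (squares) with 95% intervals from the fit of 12 libraries; dashed lines mark the median gene. In WT, Aldh1l2 and Psat1 (both called) and Chac1 and Trib3 (not called) lie to the right of 0. Asns, Atf4 and Ppp1r15a lie to the left of the median, and Atf5, Ddit3 and Phgdh lie close to it. In Mtr4-null the 10 values lie between -1.22 and 0.55.

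The genes whose levels over the 12 libraries were most like those of Atf4 were Dnajc3, a co-chaperone that inhibits eIF2 kinases (Pearson r = 0.990), Txnip (0.989) and Pbx2 (0.988). For Asns they were Cask (0.936), Mbd1 (0.921) and Ifi30 (0.919). These values are on the log2(FPKM + 1) scale, were picked as the highest of 13157 genes and share the division between compartments, so they describe the 12 libraries only.

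Other members overlap neighbours on the opposite strand as well (GENCODE M21), Ddit3 with Mars by 68 bases, Atf5 with Nup62 by 571 and with Il4i1 by 272, and Ppp1r15a with Tulp2 by 717 bases. Psat1 overlaps the processed pseudogene Gm3329 by 556 bases and Ddit3 overlaps Gm4189 by 15, and neither neighbour has a row among the deposited values. Nup62 was at 92.2 ± 13.4 FPKM in Mtr4-null and 101 ± 8.49 FPKM in WT cytoplasms, above Atf5 in every cytoplasm. Since the use of strand in the authors' quantification is not given in the sources used here, values of these genes may hold reads of the neighbour.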

How the data were processed

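The authors deposited 1 table of FPKM for 12 libraries, per the file headers. Per the submitters' processing notes, the tools named are Cufflinks 2.2.1 and TopHat2 2.1.1, and the build is mouse mm9. What each tool did, the annotation, strand use and read numbers are not stated there. The number of reads behind a value, and so the absolute depth, is unknown. From the lowest values (below 0.3 FPKM) depth relative to WT cytoplasm replicate 1 was about 0.132 to 0.437 in nuclei and 0.520 to 1.63 in the other cytoplasms, so nuclear values are less precise. Labels show 3 libraries per group although the series' design mentions duplicates, and 10 nuclei or cytoplasms were pooled per library at day 14.

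Columns were matched to samples by title. The 13157 genes that reached 1 FPKM in 3 or more libraries were fitted with limma 3.58.1 (R 4.3.3) on log2(FPKM + 1), which understates changes of low genes, with a mean per group, a variance trend, two-sided p and Benjamini-Hochberg adjustment over all genes per comparison. The fit was tested on simulated data. An exact 0 can be a failed estimate, so such values are given as listed at 0. Members and lists were chosen with earlier results of these data known. Named list genes are up to 4 per direction and list with the largest differences among those called in either fit, without overlap and averaging at least 1 FPKM in the higher group, or else the 2 most abundant, and the eIF2 kinases; Atf4 and Asns each have the 3 most correlated genes. Alternatives were another pseudocount, filters, scalings, weights, a replicate block, fits of the 6 libraries compared and leaving out libraries. Same-numbered samples correlated at -0.15 to 0.30 in their deviations from group means, so the numbers were not taken to pair samples.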

Additional observations from a re-analysis of the deposited data

How the results depend on the processing

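Counts of members called varied with the filter, the scaling and the spread a fit assumes. So did the counts over all genes tested, given in brackets. Brackets are omitted for nuclear settings with 0 members and where single libraries were left out. In the cytoplasm the count was 0 (248 genes in all). It was 3 with library weights (4597) or group weights (3819), both of which give noisier libraries less weight. In the nucleus it was 1 (298). It was 0 with a pseudocount of 0.1, a filter at 5 FPKM, library weights or group weights. It was also 0 in the nuclei alone, with or without a replicate block. Each of these settings with 0 members called fewer genes in all than 298. With median-of-ratios scaling the count of members was 2, while more genes were called in all as well (1447). Between compartments in Mtr4-null it was 2 (4230). It was 0 without a filter (1201), with median-of-ratios scaling (649), with quantile normalization (487), in those libraries alone (123) or with group weights (69). It was 1 with a pseudocount of 0.1 (3217) or a replicate block in those libraries alone (981). The replicate block in 12 libraries gave 3 (5535) and library weights gave 4 (6623). In WT it was 6 (7509). It was 3 with the filter at 5 FPKM (6322), which tests fewer members, and 4 with median-of-ratios scaling (4089) or quantile normalization (3262). It was 7 in those libraries alone (8958) or with library weights (9266). Group weights (9043) or the block in those libraries alone (8841) gave 8. For the difference of genotype effects it was 0 (16), and 1 with median-of-ratios scaling (204) or library weights (171). Leaving out single libraries gave 0 to 0 in the cytoplasm, 0 to 2 in the nucleus, 0 to 4 and 5 to 6 between compartments in Mtr4-null and WT, and 0 to 1 for the difference of effects. What lies behind these shifts was not tested. Leaving out both doubted nuclei (replicates 1 and 3) leaves 1 nuclear library labelled Mtr4-null, so no counts are given for that setting in any comparison.

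Replicate numbers did not pair the samples by the rule used, as not every same-numbered pair correlated above 0.1. With the replicate number as a block, 0 members were called in the cytoplasm (328 genes in all, against 248) and 1 in the nucleus (377, against 298). In the libraries alone the block gave 0 members in either, with 1487 and 8 genes in all, against 3050 and 5. Genes called in the cytoplasm numbered 248 in 12 libraries, 3050 in the cytoplasms alone and 3819 with group weights.

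Log2 differences that changed sign lay near 0 in part, while without both doubted nuclei they reached -0.77 (Atf4 in nucleus). The latter rest on a single nuclear library labelled Mtr4-null. With median-of-ratios scaling these were Eif2ak3 in cytoplasm (0.012), Ddit3 (0.26), Asns (0.17), Atf5 (0.030) and Phgdh (0.025) between compartments in Mtr4-null, Ddit3 (0.24) and Phgdh (0.14) in WT, and Phgdh (-0.12) in the difference of effects. With quantile normalization they were Psat1 (-0.00077), Eif2ak1 (0.036) and Eif2ak3 (0.00043) in cytoplasm, Atf4 (-0.10), Gcn1l1 (-0.082), Qars (-0.14) and Calr (-0.045) in nucleus, Asns (0.0070), Ddit3 (0.23) and Phgdh (0.017) between compartments in Mtr4-null, Atf4 (0.033), Ddit3 (0.22) and Phgdh (0.088) in WT, and Atf4 (-0.083) and Phgdh (-0.071) in the difference of effects. With library weights they were Eif2ak1 in cytoplasm (0.012), Atf5 (-0.065), Phgdh (-0.28) and Eif2ak3 (-0.19) in nucleus, Trib3 between compartments in WT (-0.047), and Ddit3 (-0.0023), Atf5 (-0.54) and Phgdh (-0.42) in the difference of effects. Without both doubted nuclei they were Atf4 (-0.77), Gcn1l1 (-0.52), Eif2ak3 (-0.042), Slc6a9 (-0.18), Ddit4 (-0.23), Qars (-0.73), Iars (-0.21), Ern1 (-0.52) and Calr (-0.60) in nucleus, Chac1 (-0.0068) and Psat1 (-0.32) between compartments in Mtr4-null, and Atf4 (-0.62) and Ppp1r15a (-0.11) in the difference of effects.

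Over single libraries left out, the ranges that crossed 0 were, in cytoplasm, -0.041 to 0.28 for Chac1, -0.096 to 0.039 for Eif2ak1 and -0.13 to 0.068 for Eif2ak3. In the nucleus they were -0.20 to 0.72 for Atf4, -0.28 to 0.13 for Chac1, -0.29 to 0.61 for Phgdh, -0.57 to 0.040 for Ppp1r15a, -0.16 to 0.51 for Eif2ak3, -0.18 to 0.70 for Calr, -0.041 to 0.70 for Ern1, -0.16 to 0.55 for Gcn1l1, -0.0051 to 0.72 for Iars and -0.17 to 0.63 for Qars. Between compartments they were -0.66 to 0.11 for Asns, -0.045 to 0.27 for Chac1 and -0.093 to 0.31 for Psat1 in Mtr4-null, and -0.095 to 0.55 for Trib3 in WT. For the difference of effects they were -0.055 to 0.86 for Atf4, -0.16 to 0.87 for Atf5, -0.40 to 0.020 for Chac1, -0.52 to 0.38 for Phgdh and -0.063 to 0.55 for Ppp1r15a. Low values of the nuclei, with fewer reads than the cytoplasms by the estimate from low values, limit what the nuclear comparisons can show.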
